A study of Mus musculus with 47 samples.

Results

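The lungs described here came from mice of the air group, which were never exposed to welding fume, taken at 28 d or at 4 hr after the last exposure session. They were chosen by their sample labels alone, as every lung array of the air group, and they make up 8 of the 47 arrays of the series, 4 at 28 d and 4 at 4 hr, each from another mouse. The mice were male C57BL/6J of 6 weeks at the start, a wild-type inbred strain with no transgene, and all of them were exposed, to air or to fume, in 10 daily sessions of 3 hr. The fume mice, used below only as a second set of lungs, inhaled, at 40 mg/m3, the fume of arc welding on stainless steel, called GMA-SS by the study, in those sessions. The comparison of 28 d with 4 hr in air mice measures how far lungs that never met the fume differ between the 2 sampling times of the study. At 28 d the mice were also about 28 d older, were that much further from the last session, and were killed in a separate harvest. The mice lived under a light/dark cycle, and the clock hour of each harvest is not given in the sources used here. Each time point of lung was hybridized on a beadchip of its own, so that time after exposure, age, hour of harvest, nearness to the last session and beadchip cannot be told apart in any value below.

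Genes of the circadian clock were among those with the largest changes between these 2 groups. In mammalian cells the transcription factors BMAL1 (gene Arntl) and CLOCK, or its relative NPAS2, bind E-boxes and switch on the Per and Cry genes, whose proteins return to block them. A second loop runs through REV-ERB (Nr1d1 and Nr1d2) and ROR receptors, which repress and activate Arntl, so that Arntl transcript peaks at the time of day when its targets are low. Another set, the PAR bZIP factors DBP, TEF and HLF, is switched on through E-boxes and drives output genes through D-boxes. The lung is known to hold such a clock in its airway epithelium, and adrenal glucocorticoids, which also cycle daily, act on it.

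On the arrays the signal of a gene is a bead intensity, given below as normalized log2 signal, and a change is the 28 d mean minus the 4 hr mean on that scale. The mean signal of the negative control beads, which measures background, was 123.8 to 136.4 on the 28 d air lung arrays and 192.7 to 199.0 on the 4 hr ones, with no overlap. The count of entries above background still lay between 10371 and 10396 at 28 d and between 10291 and 10431 at 4 hr. In the aorta the background ran the other way, at 75.5 to 81.9 at 28 d and 67.4 to 71.7 at 4 hr. Correlation across genes between arrays was 0.9919 to 0.9951 within the 28 d group, 0.9939 to 0.9958 within the 4 hr group and 0.9843 to 0.9898 between them.

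**Figure D1:**
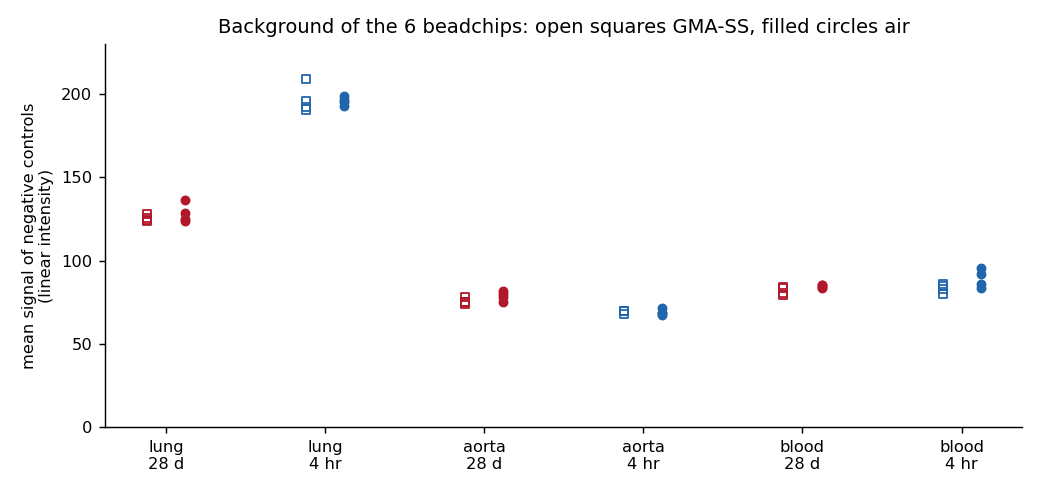
Mean negative control signal (linear intensity, vertical axis) of each array, by tissue and time (28 d red, 4 hr blue), with GMA-SS arrays as open squares and air arrays as filled circles; each tissue and time is 1 beadchip. The 28 d lung arrays sit below the 4 hr lung arrays, whereas in the aorta the 28 d arrays sit above.

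Of 11133 genes tested, 2810 (25.2%) passed an adjusted p under 0.05, 1431 (12.9%) of them higher and 1379 (12.4%) lower at 28 d. Most of these changes were small, with a median size of 0.38 on the log2 scale, and 92 genes (0.826%) changed at least 2-fold, 36 of them higher and 56 lower. The median change over all genes tested was 0.01. With no overlap between the 2 groups, 1580 genes (14.2%) lay higher at 28 d and 1462 (13.1%) lower. When the genes were ranked by signal and split into 3 sets of 3711, the share called was 17.3% in the dimmest, 27.4% in the middle and 31% in the brightest set, with near equal counts in both directions in each. Of the 37 clock genes listed, 35 were on the array and 29 passed the filter on low signal. Of these 29, 16 (55.2%) passed the test, 3 higher and 13 lower at 28 d, beside the 25.2% of all genes. Clock genes held 2 of the 36 genes at least 2-fold higher and 7 of the 56 at least 2-fold lower.

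All 3 activators that were tested were higher at 28 d. Arntl, the gene of BMAL1, had 10.82, 10.90, 10.69 and 10.70 at 28 d, against 7.28, 8.53, 7.97 and 8.35 at 4 hr. The 28 d mice lay within a narrow band, well above the highest 4 hr mouse, and replicate 1 was the lowest at 4 hr. The change of Arntl was 2.75 ± 0.19 (SE), a 6.70-fold higher level (adjusted p = 8.6e-08), the second largest increase of all genes tested. Npas2, which can stand in for CLOCK as the partner of BMAL1, had 6.95, 7.17, 7.15 and 7.05 at 28 d and 5.45, 5.24, 5.46 and 5.23 at 4 hr. Npas2 was above background on all 4 arrays at 28 d and on 0 of 4 at 4 hr, so that its level was at least 3.06-fold higher at 28 d (adjusted p = 9.1e-08). Clock had 10.87, 10.83, 10.95 and 11 at 28 d and 9.97, 10.17, 9.96 and 10.20 at 4 hr, a 1.79-fold higher level (adjusted p = 8.8e-07). The detection p of its entry does not fall on whole steps of the control beads, as an average over several probes would not, and it passed on 3 of 4 arrays at 28 d and 1 of 4 at 4 hr despite the bright signal. The fourth activator, Arntl2, was at background on all 16 lung arrays.

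**Figure D2:**
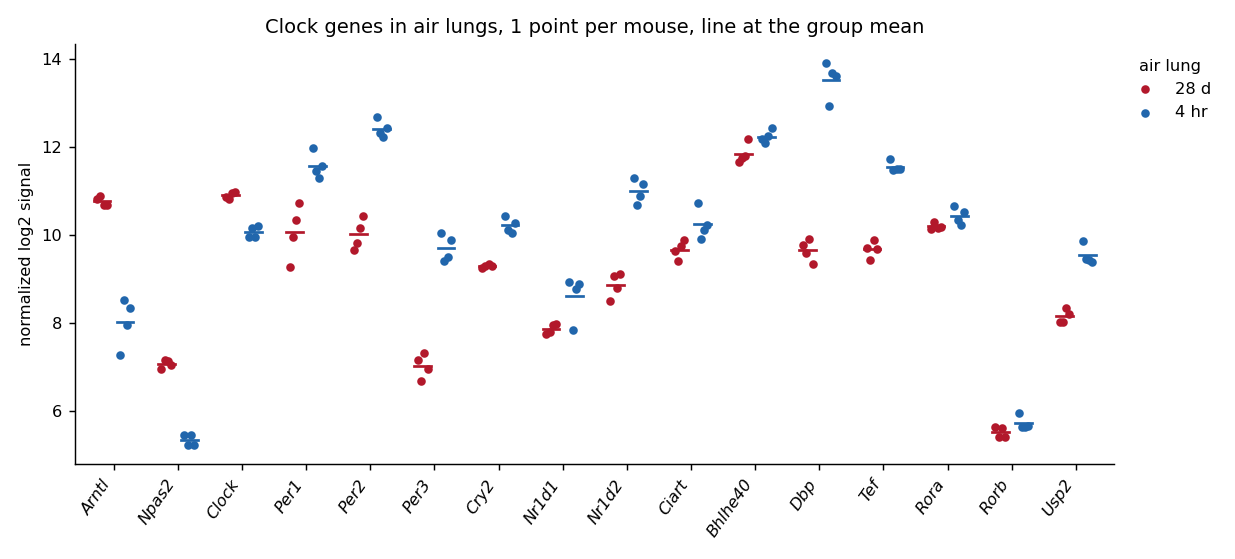
Normalized log2 signal (vertical axis) of 16 clock genes in each air lung, 28 d in red at the left of each pair and 4 hr in blue at the right, with a line at the mean of the 4 mice. Arntl, Npas2 and Clock lie higher at 28 d, whereas Per1 to Per3, Cry2, Nr1d2, Dbp, Tef and Usp2 lie lower with no overlap.

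The genes that BMAL1 and CLOCK drive, and whose products repress it, were lower at 28 d. Of 8 such repressors tested, 7 passed the test, all lower, and the median change was -1.21. The Per genes encode the core repressors of the loop. Per3 had 7.17, 6.69, 7.34 and 6.96 at 28 d, against 10.05, 9.42, 9.5 and 9.89 at 4 hr. Its change of -2.67 ± 0.21 (6.39-fold, adjusted p = 2.5e-07) was the second largest decrease of all genes. Per2 had 9.66, 9.83, 10.16 and 10.43 at 28 d and 12.69, 12.34, 12.23 and 12.44 at 4 hr (5.29-fold lower, adjusted p = 6.8e-08). Per1, which also responds directly to glucocorticoids, had 9.28, 9.96, 10.35 and 10.73 at 28 d and 11.99, 11.46, 11.29 and 11.57 at 4 hr (2.83-fold lower, adjusted p = 0.00074). Per1 spread more widely among the 28 d mice than Per2 or Per3, and both Per1 and Per2 were lowest in replicate 1 and highest in replicate 4. Cry2, a cryptochrome repressor that pairs with the PER proteins, had 9.26, 9.30, 9.35 and 9.30 at 28 d and 10.44, 10.12, 10.06 and 10.29 at 4 hr (1.90-fold lower, adjusted p = 1.9e-06). Cry1 was at background on all 16 lung arrays.

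Of the REV-ERB receptors, which repress Arntl, Nr1d2 had 8.50, 9.08, 8.80 and 9.13 at 28 d, against 11.29, 10.70, 10.89 and 11.17 at 4 hr. It was 4.39-fold lower (adjusted p = 1.4e-06), with the groups far apart. Nr1d1 had 7.75, 7.81, 7.97 and 7.99 at 28 d and 8.94, 7.84, 8.79 and 8.88 at 4 hr. Replicate 2 of the 4 hr group lay among the 28 d mice, and the change of -0.73 ± 0.37 did not pass (adjusted p = 0.16). With the 8 air arrays normalized and fitted alone the same change passed, at -0.74 (adjusted p = 0.016, range 0.016 to 0.30 over the alternatives). The same 4 hr mouse had the lowest Dbp and the highest Arntl of its group. Ciart, a repressor of the CLOCK and BMAL1 pair, had 9.65, 9.41, 9.76 and 9.89 at 28 d and 10.73, 9.91, 10.12 and 10.23 at 4 hr (1.49-fold lower, adjusted p = 0.011), with the highest 28 d mouse just under the lowest 4 hr mouse. Bhlhe40, which competes for E-boxes, was 1.32-fold lower (adjusted p = 0.0059), with 11.66, 11.75, 11.80 and 12.18 at 28 d and 12.19, 12.10, 12.26 and 12.43 at 4 hr, so that the groups overlapped. Bhlhe41 was at background on all 16 arrays.

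The largest decrease of all was that of Dbp, the D-box factor often used as a marker of clock output. Dbp had 9.77, 9.59, 9.91 and 9.35 at 28 d, against 13.92, 12.94, 13.68 and 13.63 at 4 hr. Even the lowest 4 hr mouse stood far above the highest 28 d mouse. The change was -3.89 ± 0.26, a 14.8-fold lower level at 28 d (adjusted p = 5.9e-08). As deposited, before any correction, the signal of Dbp was 668.2 to 867.0 at 28 d and 9082 to 17483 at 4 hr. Tef, another factor of the family, had 9.70, 9.43, 9.90 and 9.70 at 28 d and 11.73, 11.48, 11.50 and 11.51 at 4 hr (3.66-fold lower, adjusted p = 1.7e-09). The remaining one, Hlf, was at background on all 16 arrays, and the D-box repressor Nfil3 was not analysed here.

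Stretches of promoter that hold an E-box or a D-box are printed for 4 of the genes that were lower at 28 d, to show the sites through which the clock factors are known to act. The sequences are those of RefSeq, build GRCm38.p6, 5′ to 3′ on the strand of the gene and before the transcription start only, with the motif in capitals. The motifs shown are the E-box CACGTG, which reads alike on both strands, and the D-box TTATGNAA on either strand, and the 2 do not overlap. The nuclear receptor motif AGGTCA was searched on both strands as well and left in lower case. It was found in the windows of Per1 (137 bases before the start, within the stretch printed), Nr1d2, Clock and Nampt, and in 14% of all windows. In Per1 the E-box lies 166 and the D-box 24 bases before the start, on chr11:69098763-69098948 of the plus strand. In Ciart 3 E-boxes lie 116, 58 and 44 bases before the start, on chr3:95882247-95882364 of the minus strand. In Tef, at the first of its 2 listed starts with an E-box, the motif lies 127 bases before the start, on chr15:81802526-81802571 of the plus strand. In Per3 both D-boxes, 205 and 158 bases before the start, lie on chr4:151044796-151044890 of the minus strand.
Per1: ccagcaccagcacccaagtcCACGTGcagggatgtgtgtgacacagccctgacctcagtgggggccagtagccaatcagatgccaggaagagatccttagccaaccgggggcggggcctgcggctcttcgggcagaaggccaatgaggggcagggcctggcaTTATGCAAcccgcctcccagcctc
Ciart: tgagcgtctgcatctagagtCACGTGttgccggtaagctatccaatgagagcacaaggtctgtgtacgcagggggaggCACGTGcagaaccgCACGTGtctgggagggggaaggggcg
Tef: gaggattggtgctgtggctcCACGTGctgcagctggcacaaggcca
Per3: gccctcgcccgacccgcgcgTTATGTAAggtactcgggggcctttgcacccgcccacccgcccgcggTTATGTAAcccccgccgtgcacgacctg
Windows of 250 bases before the start were held for 23 of the 29 clock genes tested. An E-box was found in 4 and a D-box in 3 of these 23, too few with a window for a comparison of shares. Among them were Sirt1 with E-boxes and Timeless with a D-box, neither of them called and both with a positive change. Outside the clock list an E-box was found, among others, in Hsph1 and Hspd1, both higher at 28 d, and in Fkbp5, which was lower. Over all 32851 windows of that length, 6.02% held an E-box and 3.07% a D-box, and of the 8588 tested genes with a window 9.66% and 2.74% did. A match is a match of letters only, and neither motif was found in the windows of Dbp, Cry2, Nr1d1, Npas2 or Arntl.

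The ROR receptors activate Arntl through the same sites that REV-ERB blocks. Rora had 10.15, 10.30, 10.17 and 10.20 at 28 d and 10.67, 10.34, 10.24 and 10.53 at 4 hr, and its change of -0.24 ± 0.09 did not pass (adjusted p = 0.069). Without replicate 3 of the 4 hr group the change of Rora was -0.31 and passed (adjusted p = 0.029, range 0.029 to 0.22 over the alternatives). Rorb, near background, had a change of -0.21 (adjusted p = 0.26).

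Of 14 genes tested that modify clock proteins or act on them, 4 were lower at 28 d and 0 higher by limma, with 2 higher at an unadjusted p under 0.05 (median change -0.11), a share close to the 25.2% called over all genes. Usp2, a deubiquitinase of clock proteins, had 8.03, 8.04, 8.36 and 8.21 at 28 d and 9.88, 9.45, 9.44 and 9.40 at 4 hr (2.61-fold lower, adjusted p = 1.8e-06). The kinases that phosphorylate PER, Csnk1e and Csnk1d, were lower by little, with changes of -0.32 and -0.24 (adjusted p = 0.0045 and 0.011). Wdr5, a chromatin protein found with PER1, had a change of -0.28 (adjusted p = 0.021). That call was lost without replicate 1 of the 28 d group (-0.23, adjusted p = 0.063), without its replicate 3 (-0.26, adjusted p = 0.052) and without replicate 1 of the 4 hr group (-0.24, adjusted p = 0.070), within a range of 0.011 to 0.070 over the alternatives. The other 10 did not pass, with changes between -0.25 for Nono and 0.22 for Timeless and Sirt1. Btrc, Gsk3b, Tipin, Nampt, Prkaa2, Hdac3 and Ncor1 lay between these values. Sirt1, a deacetylase that acts on the clock proteins, passed only without replicate 1 of the 28 d group (0.30, adjusted p = 0.042, range 0.042 to 0.33). Fbxl21 and Fbxw11 were at background too. The 6 clock genes at background showed no sign of averaged probes and had normalized signals of 4.92 to 6.06 at 28 d and 4.90 to 5.70 at 4 hr in air lungs. Prkaa1 was not analysed here.

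Among genes known to cycle in mouse tissues outside the core loop, more were lower than higher at 28 d. Of 22 tested in this list, 4 were higher and 13 lower, beside 12.9% and 12.4% over all genes. The median change of the list was -0.45. Avpr1a, a vasopressin receptor, had 8.28, 8.42, 8.13 and 8.44 at 28 d and 5.98, 6.34, 6.05 and 5.72 at 4 hr. It was above background on 4 of 4 arrays at 28 d and 0 of 4 at 4 hr, and at least 4.89-fold higher at 28 d (adjusted p = 8.3e-09). Leo1, a subunit of the PAF1 transcription complex, was 2.10-fold higher, Dtx4 1.83-fold and Chordc1 1.34-fold, each with no overlap. Wee1, a kinase that holds cells before mitosis and a known E-box target in mouse liver, had 5.37, 5.20, 5.51 and 5.65 at 28 d and 6.71, 6.78, 6.27 and 7.39 at 4 hr. Wee1 was above background on 0 of 4 arrays at 28 d and 4 of 4 at 4 hr, and was at least 2.44-fold lower at 28 d (adjusted p = 0.00034). Klf15, a regulator of amino acid and glucose metabolism, had 7.20, 7.26, 7.53 and 7.32 at 28 d and 9.16, 8.53, 8.41 and 9.11 at 4 hr (2.78-fold lower, adjusted p = 2.7e-05). The others lower at 28 d were Tsc22d3, Tspan4, Tns2, Klf9, Por, Alas1, Hif3a, Klf13, Coq10b, Herpud1 and Pparg, at changes of -1.52 to -0.30. Alas1, the first enzyme of heme synthesis, was 1.61-fold lower and Por, the electron donor of cytochrome P450 enzymes, 1.66-fold lower. Pparg no longer passed without replicate 3 of the 28 d group (-0.25, adjusted p = 0.051, range 0.0056 to 0.051). Pdk4, Insig2, Angptl4, Cdkn1a and Ppargc1a did not pass, with changes of -0.40 to 0.20.

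Genes that glucocorticoids induce were lower at 28 d wherever they were called. Of 20 tested, 13 were lower and 0 higher by limma, with 1 higher at an unadjusted p under 0.05, and the median change was -0.69. Over all genes 12.4% were lower. Fkbp5, a co-chaperone of the glucocorticoid receptor, had 8.05, 7.65, 7.98 and 8.14 at 28 d, against 10.57, 10.25, 9.95 and 10.83 at 4 hr. It was 5.43-fold lower (adjusted p = 3.4e-06), the third largest decrease of all genes. Tsc22d3, which encodes the anti-inflammatory protein GILZ, had 12.08, 12.28, 12.44 and 12.61 at 28 d and 14.05, 13.88, 13.67 and 13.89 at 4 hr (2.87-fold lower, adjusted p = 8.8e-07). Ddit4, an inhibitor of mTORC1, had 10.08, 9.93, 10.06 and 10.22 at 28 d and 11.81, 11.25, 10.83 and 11.03 at 4 hr (2.23-fold lower, adjusted p = 8.0e-05). Arrdc2 was 2.01-fold lower, Klf9 1.82-fold and Glul, which encodes glutamine synthetase, 2.36-fold, all with no overlap between groups. Per1 is also a clock gene here, and Klf9, Tsc22d3, Hif3a, Cdkn1a, Angptl4 and Pdk4 are also on the list of genes known to cycle. Sgk1, Dusp1, Cebpb, Lcn2, Cdkn1a, Angptl4 and Pdk4 did not pass, with changes of -0.40 to 0.21. The others lower at 28 d were Errfi1, Mt1, Mt2, Nfkbia and Sult1a1.

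**Figure D3:**
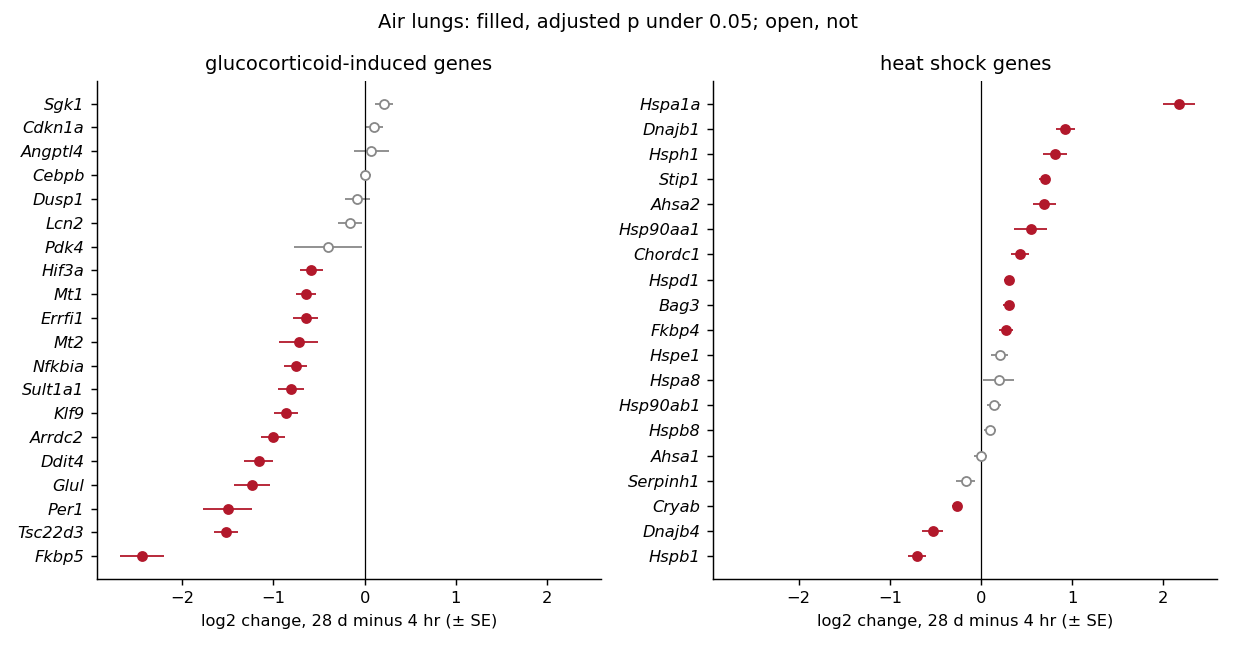
Log2 change at 28 d minus 4 hr in air lungs (horizontal axis, point with SE) of each glucocorticoid-induced gene (left) and heat shock gene (right) tested, filled where the adjusted p was under 0.05. On the left 13 of 20 are filled, all below 0, and on the right 10 of 19 are filled above 0 and 3 below.

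Of 19 heat shock genes tested, 10 were higher and 3 lower at 28 d, with a median change of 0.28, beside 12.9% higher and 12.4% lower over all genes. Hspa1a, the inducible HSP70 chaperone, had 11.16, 11.26, 11.35 and 11.90 at 28 d, against 9.44, 9.53, 9.02 and 9.0 at 4 hr (4.5-fold higher, adjusted p = 2.5e-07). Hspa1b, a nearly identical copy, was not tested and could share this signal. The HSP70 and HSP90 partners Dnajb1, Hsph1, Stip1 and Ahsa2 were higher by 0.92, 0.81, 0.70 and 0.70, all with no overlap, and Hspd1, the mitochondrial HSP60 chaperone, was higher by 0.30 (adjusted p = 0.00073). The small heat shock proteins Hspb1 (change -0.71, adjusted p = 7.8e-05) and Cryab (-0.26, adjusted p = 0.0038) went the other way, as did Dnajb4 (-0.53, adjusted p = 0.0024). Another small heat shock protein, Hspb8, was not lower. It had 10.70, 10.77, 10.91 and 10.79 at 28 d and 10.72, 10.64, 10.71 and 10.71 at 4 hr, so that the groups overlapped. The promoter of Hspa1a, shown because it was the most changed of the list, holds a core of the heat shock element GAANNTTC, which reads alike on both strands, 104 bases before the start, on chr17:34972233-34972280 of the minus strand.
Hspa1a: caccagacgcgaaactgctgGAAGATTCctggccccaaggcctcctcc
Over all windows of 250 bases, 6.69% held this motif, and of the 8588 tested genes with a window 6.24% did. It was found in 5 of the 15 heat shock genes tested that had a window, and in 3 of the 9 of these called higher. Hspb1, which was lower at 28 d, held it 117 and 97 bases before the start. These genes are too few for a comparison of shares, and a match is a match of letters only.

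Of 2 genes that respond to cold, Cirbp, an RNA-binding protein known to follow the daily body temperature rhythm, had 9.78, 10.30, 10.23 and 9.85 at 28 d and 10.56, 10.51, 10.56 and 10.54 at 4 hr (change -0.50 ± 0.13, adjusted p = 0.0076). Rbm3 had a change of 0.11 (adjusted p = 0.49). Of 15 genes of endoplasmic reticulum chaperones and their stress response, 6 were higher and 2 lower, beside 12.9% and 12.4% over all genes. Among the higher were Pdia6 (0.67), Calr (0.56), Hsp90b1 (0.49), Creld2 (0.45) and Pdia3 (0.24), which fold secreted proteins, and Herpud1, which takes part in the removal of misfolded proteins, was lower (-0.44). Of 18 immediate early genes, 4 were higher and 3 lower, beside the same shares over all genes. Atf3, a stress-induced transcription factor, had 8.14, 8.44, 8.41 and 8.13 at 28 d and 7.0, 7.65, 7.19 and 7.08 at 4 hr (adjusted p = 0.00058).

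Outside these lists, the most changed gene of all by p and the one with the largest increase was Spon2, a secreted matrix protein that takes part in innate immunity. Spon2 had 14.37, 14.03, 14.46 and 14.28 at 28 d, against 10.40, 10.85, 11.06 and 10.91 at 4 hr. All 4 mice at 28 d lay far above all 4 at 4 hr, with a change of 3.48 ± 0.14 (11.1-fold higher, adjusted p = 6.4e-11). Msc, a basic helix-loop-helix repressor, was 3.17-fold higher, Slc26a4, which encodes the anion exchanger pendrin, 3.10-fold, and Glipr2 2.52-fold, all above background in every mouse of both groups. Fam124b and Ccdc184 were 3.91- and 2.55-fold higher, each above background on 4 of 4 arrays at 28 d and on 3 of 4 at 4 hr. Gprin3 had 6.47, 7.11, 6.89 and 7.27 at 28 d and 5.49, 5.68, 5.46 and 5.78 at 4 hr, where it was above background on 1 of 4 arrays, so that its fold is uncertain. Rptn, an epidermal matrix protein, was 2.43-fold higher. The last 2 of the 15 largest increases carry only locus names, LOC100046232, with a change of 1.29, and LOC100047090, which was at least 2.45-fold higher and at background on all 4 arrays at 4 hr. Il1b, the gene of interleukin-1β, had 9.08, 9.17, 9.04 and 8.69 at 28 d and 6.83, 8.24, 7.80 and 7.68 at 4 hr. Its change of 1.36 ± 0.41 passed (adjusted p = 0.021) but was not called without replicate 2 of the 28 d group (1.30, adjusted p = 0.054) or without replicate 1 of the 4 hr group (1.09, adjusted p = 0.078). Nor was it called without background correction (0.91, adjusted p = 0.053) or in the authors' normalized values (0.45, adjusted p = 0.21), within a range of 0.0012 to 0.21 over the alternatives.

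Among the decreases, Fam107a, an actin-bundling protein known to be induced by stress hormones in brain, had 7.90, 7.98, 8.16 and 8.19 at 28 d, against 10.46, 10.04, 10.02 and 10.44 at 4 hr (change -2.18 ± 0.21, adjusted p = 2.8e-06). Map3k6, a stress-activated kinase, was 3.15-fold lower, and Rgcc, a regulator of the cell cycle, 2.89-fold lower. Gprc6a, a receptor for amino acids, was 2.86-fold lower and Wfdc12, a protease inhibitor, 2.88-fold. The 15 largest decreases were completed by Lep and Thrsp, which are expressed by fat cells. Lep, the gene of leptin, had 6.90, 7.09, 6.94 and 7.31 at 28 d and 9.37, 9.39, 8.20 and 9.94 at 4 hr (4.48-fold lower, adjusted p = 5.5e-05). Thrsp, a regulator of fat synthesis, had 7.55, 7.27, 7.07 and 6.69 at 28 d and 9.21, 9.03, 8.43 and 9.45 at 4 hr (3.69-fold lower, adjusted p = 0.00040).

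Fat cell markers, of which Lep is itself one, were measured beside these 2. Of 9 adipocyte markers tested, Lep and Adipoq were called, both lower, and 7 were not called. In all, 8 of 9 had a negative change and the median was -0.49. The summed linear signal of the list was 21200 to 31460 at 28 d and 30120 to 44690 at 4 hr, so that the ranges overlapped. Adipoq, which only fat cells are known to make, had 10.87, 10.64, 10.24 and 10.68 at 28 d and 11.82, 11.67, 11.52 and 12.34 at 4 hr. Heart muscle markers, which lung pieces carry from the walls of the pulmonary veins, had 3 of 13 called, all lower, and a median of -0.33, beside 12.4% lower over all genes. In GMA-SS lungs the change of Lep was -0.85 (adjusted p = 0.033), that of Thrsp -0.54 (adjusted p = 0.21) and that of Adipoq -0.05 (adjusted p = 0.92). The sum of the heart muscle list was 40790 to 44550 at 28 d and 40480 to 56440 at 4 hr. The part of tissue carried along in the change of Lep and Thrsp was not tested. In whole lung RNA, fewer cells of a type and less RNA per cell cannot be told apart.

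The label of lung tissue was checked against defining markers, and all 12 genes of type II pneumocytes and all 9 of club cells were above background on every air lung array. Over the 20 cell type and tissue lists, 17 of 180 tested genes were higher and 25 lower, beside 12.9% higher and 12.4% lower over all genes, and list medians lay between -0.49 for adipocytes and 0.58 for monocytes and neutrophils. Type II markers moved in both directions, 2 higher and 5 lower of 12. Cxcl15, the lung chemokine lungkine, had 15.64, 15.83, 15.62 and 15.72 at 28 d and 14.77, 14.76, 14.82 and 14.88 at 4 hr (1.86-fold higher, adjusted p = 1.1e-08), while the surfactant gene Sftpb had a change of -0.27 (adjusted p = 0.0079). Of 9 club cell genes, Scgb3a1 was lower (-1.17) and Scgb3a2 higher (0.23). Of 14 genes of ciliated cells, 4 were higher and 1 lower, and the sum of the list was 36820 to 40420 at 28 d and 31770 to 33740 at 4 hr, with no overlap. Of 6 monocyte and neutrophil markers, 3 were higher and 1 lower, among them Mmp9 (0.88, adjusted p = 0.00013), and the sum was 10170 to 14400 at 28 d and 8103 to 11550 at 4 hr. Of 12 alveolar macrophage genes, 0 were higher by limma (0 also at an unadjusted p under 0.05) and 3 were lower, Marco (-0.88), Itgax (-0.39) and Ear2 (-0.37). Of 7 erythroid genes, 2 were higher and 1, the globin gene Hbb-b1, lower (-1.05, adjusted p = 3.4e-06).

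Genes of growth showed no shared direction at an adjusted p under 0.05. Over all genes 12.9% were called higher and 12.4% lower, to be set beside each list here. Of 28 cell cycle genes, 1 was higher (Tyms, 0.44) and 1 lower (Pcna, -0.50), although 19 of 28 had a positive change. With no overlap between groups, 8 of the 28 lay higher and 1 lower, beside 14.2% and 13.1% of all genes. Of 25 genes of extracellular matrix and growth, 5 were higher and 6 lower. Eln, the gene of elastin, had 11.89, 11.38, 11.93 and 11.96 at 28 d and 10.58, 10.71, 10.91 and 11.03 at 4 hr (adjusted p = 0.00019). Loxl1, an elastin cross-linker (0.78), and Fbn1, a microfibril gene (0.58), were higher as well, and Col1a2 was lower (-0.83). Of 14 genes of fat oxidation and fasting, 2 were higher and 1 lower, led by the thioesterase Acot1 (0.95, adjusted p = 9.8e-05). Of 30 interferon-stimulated genes, 0 were higher by limma (1 at an unadjusted p under 0.05) and 2 lower. The lower ones were Bst2 (-0.96, adjusted p = 0.014) and Ifi27l2a (-0.59, adjusted p = 0.024). Yet 25 of the 30 had a positive change, with a median of 0.17, and 8 lay higher and 3 lower with no overlap between groups. The fit takes its spread from every lung array, GMA-SS included, and how far this limited the calls in these lists was not tested.

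In the lungs of GMA-SS mice, which shared the 2 beadchips but no array with the air lungs, most clock genes changed by similar amounts between the times. Arntl had 10.62, 10.99, 10.80 and 10.70 at 28 d and 7.87, 8.25, 7.97 and 8.33 at 4 hr in GMA-SS lungs. Dbp had 10.28, 9.40, 9.38 and 10.59 at 28 d and 13.72, 13.40, 13.19 and 12.88 at 4 hr. The levels of the 2 exposures were not tested against each other, and they were not alike for every clock gene. Bhlhe40 lay at 12.33, 12.47, 12.49 and 12.45 in GMA-SS lungs at 28 d and at 12.79, 12.95, 12.95 and 12.79 at 4 hr, above every air lung of the same time. Of the 29 clock genes, 17 were called in GMA-SS lungs, 3 higher and 14 lower, where 30.1% of all genes were called, 15% higher and 15.1% lower. The difference between the GMA-SS and the air change passed with limma for 0 of the 29 clock genes (1 at an unadjusted p under 0.05) and for 63 genes of all (0.566%). At an unadjusted p under 0.05 that difference held for 815 of 11133 genes. Of the 2810 genes called in air lungs, 1988 were called in the same direction in GMA-SS lungs (70.7% of the air calls and 59.2% of the 3356 GMA-SS calls) and 8 in the opposite one. The shared beadchips take part in both sets of values, and their part was not tested. Among rhythmic genes the change of Avpr1a differed, at 1.23 in GMA-SS lungs and 2.29 in air lungs (difference -1.06, adjusted p = 0.011). Mt1, a metal-binding metallothionein, fell by 1.82 in GMA-SS lungs and by 0.64 in air lungs (adjusted p of the difference = 0.0013), and Cxcl15 had changes of 0.27 and 0.90 (adjusted p of the difference = 0.00048).

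The aorta was measured in other mice on other beadchips, and there too clock genes stood apart between the times. Of 26 clock genes tested in air aorta, 16 (61.5%) were called, 3 higher and 13 lower at 28 d, where 12.4% of all 9850 genes were called, 5.85% higher and 6.56% lower. Arntl had 7.97, 8.14, 8.08 and 8.19 at 28 d and 5.18, 5.10, 4.91 and 5.27 at 4 hr in air aorta, a change of 2.98. Dbp had 8.13, 8.24, 8.16 and 8.12 at 28 d and 12.54, 12.05, 12.37 and 12.11 at 4 hr, a change of -4.11. Per2 (-2.77), Ciart (-2.60), Usp2 (-2.23), Per1 (-1.79), Tef (-1.52), Per3 (-1.51) and Nr1d2 (-1.37) were lower there as well, and Npas2, at background on all 4 aorta arrays at 4 hr, was at least 1.34-fold higher. Ciart and Usp2 were above background on 3 of 4 aorta arrays at 28 d, though Usp2 had signals of 6.6 to 7.0 there. Signals were dim for Ciart (4.63 to 5.08) and Per3 (4.77 to 5.37) at 28 d and for Arntl at 4 hr. The aorta changes of these genes rest in part on such dim signals. Changes were not tested between tissues, since each tissue was normalized on its own. Spon2 was higher in the aorta too (2.11), and Fkbp5 (-1.90) and Tsc22d3 (-1.49) were lower.

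In whole blood cells, which came from the same air mice as the aorta, the core clock genes that could be tested differed little. Npas2, Per3, Nr1d1, Tef, Rorb and Usp2 did not pass the filter on low signal in blood and were not tested there. Of 23 clock genes tested in air blood, 2 (8.70%) were called, Prkaa2 (-0.76) and Gsk3b (-0.49), both lower and both kinases, where 17.1% of all 9259 genes were called, 9.05% higher and 8.04% lower. Dbp had 8.90, 8.88, 9.09 and 8.87 at 28 d and 8.99, 8.80, 9.10 and 8.94 at 4 hr in blood, and the groups overlapped. Arntl had 8.02, 8.07, 7.86 and 7.97 at 28 d and 7.96, 7.87, 7.64 and 7.69 at 4 hr, a change of 0.19 that did not pass. Of 18 heat shock genes tested in blood 9 were higher, and of 19 glucocorticoid-induced genes 1 was higher and 4 lower. On the same blood arrays 8 of 16 T cell markers were lower, and the part of cell composition in these values was not tested. Fkbp5 had 7.17, 7.09, 6.87 and 7.07 at 28 d and 8.71, 8.72, 8.25 and 8.76 at 4 hr (change -1.56), and Ddit4 had a change of -1.85. Hspa1a was higher by 1.81, Dnajb1 by 1.21 and Hsph1 by 1.16 in blood.

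**Figure D4:**
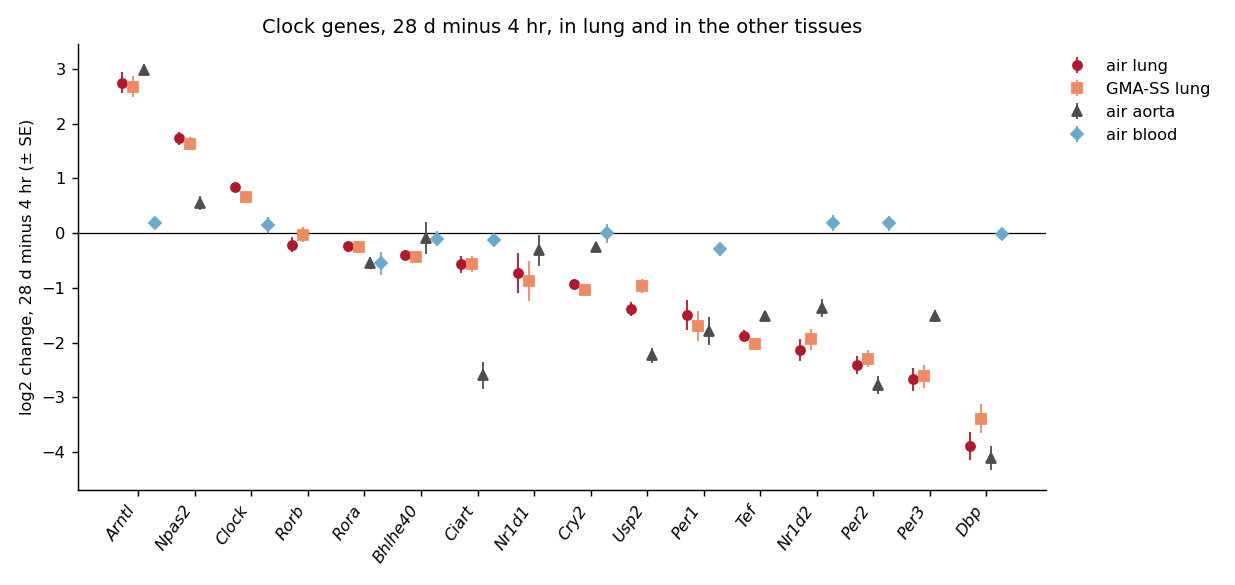
Log2 change at 28 d minus 4 hr (vertical axis, point with SE) of 16 clock genes in air lung, GMA-SS lung, air aorta and air blood, ordered by the change in air lung. A gene has no point where it was not tested, which holds for Clock and Rorb in aorta. In blood it holds for Npas2, Per3, Nr1d1, Tef, Rorb and Usp2. The lung and aorta points run from Arntl above 0 (2.75 in air lung, 2.98 in air aorta) to Dbp below 0 (-3.89 and -4.11), while the blood points lie closer to 0, the lowest being Rora at -0.55.

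Aorta and blood came from the same air mice, so that the 3 tissues are not 3 separate sets of mice. Of 7859 genes tested in all 3 tissues, 42 were called in the same direction in air lung, aorta and blood, 28 higher and 14 lower at 28 d. The 10 of them with the largest lung change held 7 lower genes, Fkbp5, Ddit4, Spsb1, Klf9, Mcf2l, Pik3ip1 and Bcl2l1, and 3 higher ones, Dnajb1, Mmp9 and Hsph1. Spsb1, an adaptor of a ubiquitin ligase, had 10.57, 10.56, 10.67 and 10.69 at 28 d and 11.65, 11.49, 11.40 and 11.50 at 4 hr in lung. Pik3ip1, an inhibitor of PI3 kinase, was 1.63-fold lower in lung, and Bcl2l1, which encodes the survival protein BCL-XL, 1.59-fold. None of the 10 was a core clock gene, and 3 of them, Fkbp5, Ddit4 and Klf9, were on the glucocorticoid list. Cirbp was also among the 42, lower in all 3 tissues. Of the genes tested in both tissues, 293 were called alike in lung and aorta (12.1% of the lung and 24.9% of the aorta calls) and 135 in opposite directions. In lung and blood 204 were called alike (9.31% of the lung and 13.3% of the blood calls), fewer than the 234 called in opposite directions.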

How the data were processed

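RNA of lung, aorta and whole blood was bound to Illumina mouse beadchips, and the paper names BeadStudio, lumi and limma. The authors deposited the average signal of each gene, a linear bead intensity with no normalization, which reads as an average over probes where a gene has several (3718 lung entries have detection p-values off whole steps), and a detection p-value, which ranks the signal among the negative controls of that array. They also deposited normalized log2 values, used here only as an alternative. All columns were mapped to samples through their labels. The mean and spread of the control beads were read from the steps of the detection p-values (798 per array). Signals were corrected with normexp, 16 was added, and log2 values were quantile normalized within each tissue. Because of the added 16, changes of dim genes are understated. Genes entered the fit with a detection p under 0.05 on 3 or more of a tissue's arrays, and the brightest entry stood for each symbol. Of 18138 entries, 16590 were named by gene ID and 883 by accession in the RefSeq table (GRCm38.p6), and 665 keep the name of the array.

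Genes were tested with limma 3.58.1 (R 4.3.3), with 1 mean per group, every array of the tissue in the fit and a trended prior, and p-values were adjusted by Benjamini-Hochberg over all genes of the tissue. The scripts were tested on simulated data. A fold written as "at least" sets the mean of the brighter group against the higher of the gene's own signal and the dimmest signal above background on each array of the group with no array above background. The number of arrays, 4 per group, limits the precision. Values named in the text are every measured clock and rhythmic gene, the 15 largest changes each way that passed the test with no overlap and were above background on every array of 1 group, up to 10 called alike in 3 tissues, and in each other list no more than 6 members, by p. Further members of a list, named to account for it, and genes whose change differed in GMA-SS lung were chosen after their values were seen. The members and the 35 gene lists were chosen with earlier results of these data known, and some members are not reported here and are left out of the counts of their lists. Replicate numbers were assigned here by the order of a group's arrays on the beadchip. The mouse numbers of the labels differ between groups, so that no pairing was used. Alternatives changed the background correction, the scaling, the filter, the entries counted, the starting values, the array weights, a replicate block, the arrays fitted, and left out each array in turn.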

Additional observations from a re-analysis of the deposited data

Results flagged for a closer look

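In 15 of the 158 groups of 4 air lungs looked at (79 genes, 9.49 in 100), 1 mouse stood apart from the other 3 by Dixon's criterion, which chance meets in about 5 of 100 groups. At 4 hr, replicate 1 was the high one for Tef (11.73, others 11.48 to 11.51), Usp2 (9.88, others 9.40 to 9.45), Rorb (5.95, others 5.65 to 5.67) and Herpud1 (14.61, others 14.52 to 14.53). At 4 hr, replicate 2 was the low one for Nr1d1 (7.84, others 8.79 to 8.94) and Alas1 (15.34, others 15.53 to 15.56). Replicate 3 at 4 hr was low for Bcl2l1 (9.15, others 9.55 to 9.61). At 28 d, replicate 1 was low for Timeless (9.12, others 9.23 to 9.25) and Gprc6a (7.66, others 8.06 to 8.09). Replicate 2 at 28 d was high for Tipin (9.52, others 9.14 to 9.18) and low for Hsph1 (11.76, others 12.34 to 12.41) and Mmp9 (8.93, others 9.11 to 9.12). Replicate 3 at 28 d was high for Tns2 (8.19, others 7.90 to 7.93) and low for Glipr2 (10.37, others 10.57 to 10.60) and Wfdc12 (6.81, others 7.22 to 7.26).

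The change of Avpr1a between the times differed between exposures, by -1.06 for GMA-SS minus air lung (adjusted p = 0.011). Every mouse of one group lay beyond every mouse of the other, in opposite directions in 2 tissues, for 4 of the 79 genes. In air lung 14.2% of all genes lay higher and 13.1% lower with no overlap, and some of the 79 were chosen for it. By the adjusted p, which is another measure, 135 genes were called in opposite directions in air lung and aorta and 234 in air lung and blood. Avpr1a was higher at 28 d in air lung, and in air aorta its change was -0.21 (adjusted p = 0.30). Glipr2 was higher in air lung, and in air blood its change was -0.41 (adjusted p = 0.050). Alas1 and Coq10b were lower in air lung, and in air blood their changes were 0.47 (adjusted p = 0.030) and 0.55 (adjusted p = 0.0031). These differences between tissues were not tested.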

How the results depend on the processing

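Over 9 alternative settings and 8 fits that each left out 1 air lung, the 2810 calls in air lung stayed between 2207 (without replicate 1 at 4 hr) and 3005 (array weights). Clock genes called stayed at 15 to 17 when 1 mouse was left out, glucocorticoid-induced genes called lower at 12 to 13, and heat shock genes called higher at 9 to 11. Of 79 genes followed one by one, none that was called in the main fit or in the alternative changed direction between them. Changes of direction in genes called in neither fit were not counted. Calls changed for Il1b, Nr1d1, Wdr5, Sirt1, Pparg and Rora, as given above. Calls in GMA-SS lung stayed between 2693 and 3389 with 1 mouse left out, against 3356, and were 4135 with array weights. The other counts depended more on single arrays. The difference between GMA-SS and air lung had 32 to 77 calls with 1 mouse left out, against 63, and 118 with array weights. It had 32 to 40 calls without replicate 3 at 28 d or replicate 1, 3 or 4 at 4 hr of GMA-SS, or without replicate 3 or 4 at 28 d or replicate 2 at 4 hr of air. Its split was 29 higher and 34 lower, and 30 and 20 with scaling to the 75th percentile. Calls in air aorta were 715 (without replicate 1 at 4 hr) to 1284 with 1 mouse left out, against 1222, with 766 without replicate 2 at 28 d and 773 without replicate 3 at 4 hr, and 2179 with array weights. Calls in air blood were 845 (without replicate 3 at 28 d) to 1626, against 1582, with 1050 and 1024 without replicates 3 and 4 at 4 hr. The causes were not tested. Same-numbered air lungs did not deviate together (correlations of -0.20, 0.09, -0.06 and 0.14), and when the replicate number was added to the fit as a block 2922 genes were called in air lung, 3520 in GMA-SS lung, 57 for the difference, 1060 in air aorta and 1721 in air blood, with the call of none of the 79 genes changed. With 4 mice a group and 1 beadchip per time, no setting can separate time from beadchip.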
